A study of Mus musculus with 13 samples.

Results

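The 39 genes described here run or mark the cell division cycle and DNA replication: 8 cyclins, 4 cyclin-dependent kinases (CDK), 8 E2F transcription factors, 3 retinoblastoma family (pocket) proteins, 6 CDK inhibitors, 6 subunits of the MCM replicative helicase, the licensing factors Cdc6 and Cdt1, the sliding clamp Pcna and the proliferation marker Mki67. They were chosen by name for these roles, and all 39 were found among the 21887 protein-coding genes on chromosomes 1 to 19, X and Y. Binding of BLIMP1, the zinc-finger regulator encoded by Prdm1, had been mapped by anti-GFP ChIP-seq in C57BL/6 mouse cells, all homozygous for an EGFP tag at the N terminus of BLIMP1. Primordial germ cell-like cells (PGCLC) were made from knock-in embryonic stem cells through epiblast-like cells and collected on day 2 (LIF and BMP4, KIT-positive, 2 replicates) or day 6 (LIF, BMP4, BMP8a, SCF and EGF, positive for SSEA1 and integrin beta-3, 2 replicates). Primordial germ cells (PGC) came from E12.5 gonads (E, embryonic day) of embryos made by sperm injection, with 1 male and 1 female library of SSEA1-positive cells, here treated as 1 cell type. Intestinal epithelium (E16.5, positive for GFP and EPCAM), photoreceptor precursors (retina at postnatal day 4, GFP-positive) and plasmablasts (B cells stimulated for 3 days with IL-4 and LPS, positive for GFP and CD138) had 2 replicates each. Whether replicates were separate cultures or animals is not stated in the labels. The deposited lists hold peak positions and no expression, so the labelled cell types were not checked against markers.

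As background, D-type cyclins with CDK4 or CDK6, and then E-type cyclins with CDK2, phosphorylate the retinoblastoma proteins and free the E2F factors, which switch on genes for DNA synthesis. INK4 and CIP/KIP inhibitors hold the kinases back, and CDC6 and CDT1 load the MCM helicase onto replication origins. BLIMP1 is known for ending proliferation as B cells become antibody-secreting cells, and for acting in the founding of the germ line, where cells go on dividing.

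The 12 lists held between 7998 and 76185 summits (the highest point of each called peak) on the chromosomes used. The longest list was d6 PGCLC replicate 1 and its partner held 15411. Plasmablast lists held 40750 and 45122. Input ranged from 3.0 to 30 times 1e5 cells per library, and both replicate 1 of d6 PGCLC and replicate 1 of d2 PGCLC were made from the smallest number. Read depth is unknown, and a longer list marks more genes of every kind. Each count of cell cycle genes is therefore set beside the share of the 21848 other protein-coding genes that met the same criterion. A gene was called bound in a cell type when each of its 2 libraries had a summit within 1 kb of either end of the gene. Positions are those of mm10, as listed, and may be off by 1 bp because the lists do not state whether they count from 0 or 1. Genes are not replicates of a cell type, so no p-value is given for the list.

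In plasmablasts 34 of the 39 genes were bound (87.2%), against 39.6% of the other genes. In each of the other 5 cell types far fewer were bound. Of the germ-lineage stages, d6 PGCLC bound 9 (23.1%, other genes 9.70%), d2 PGCLC 7 (17.9%, 8.39%) and E12.5 PGC 4 (10.3%, 5.78%). Intestinal epithelium and photoreceptor precursors had 6 bound genes each (15.4%), against 7.28% and 9.67% of the other genes. The share of cell cycle genes lay above the background share in all 6 cell types at this window. That background was not matched for promoter composition, which is taken up below. A summit-to-end distance of at most 0.5 kb left 2 bound genes in d2 PGCLC (5.13%, other genes 5.30%), 2 in d6 PGCLC (5.13%, 5.90%), 1 in E12.5 PGC (2.56%, 3.81%) and 2 in photoreceptor precursors (5.13%, 7.28%), shares that no longer exceeded the background. In intestinal epithelium 3 remained (7.69%, other genes 5.07%). In plasmablasts 29 remained (74.4%, other genes 31.8%). Within 5 kb plasmablasts bound 36 genes (92.3%, other genes 50.3%), d6 PGCLC 17 (43.6%, 19.2%), intestinal epithelium 14 (35.9%, 12.9%), d2 PGCLC 12 (30.8%, 17.8%), E12.5 PGC 10 (25.6%, 12.1%) and photoreceptor precursors 9 (23.1%, 15.5%).

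**Figure D1:**
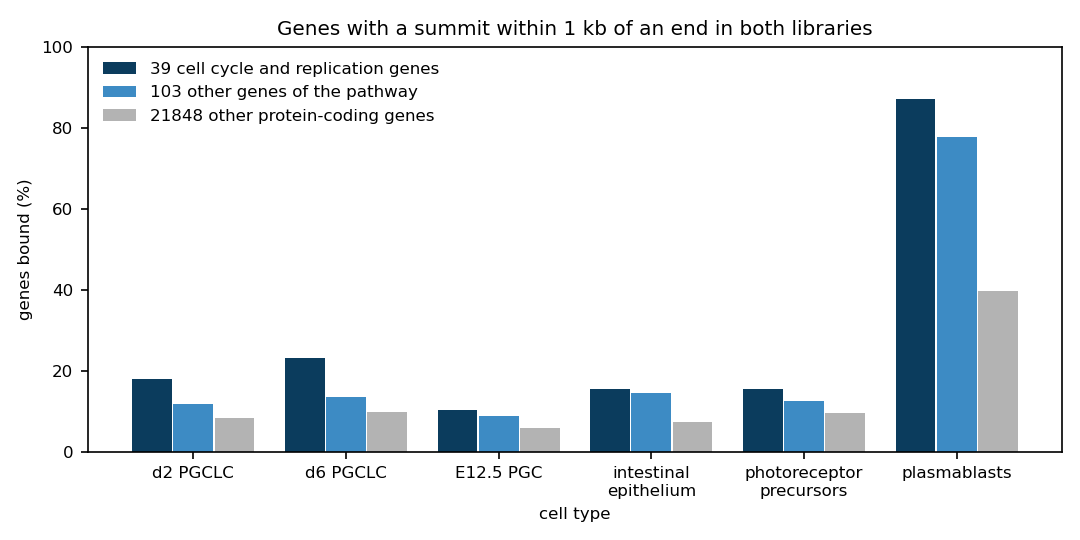
Share of genes bound within 1 kb of an end in both libraries (vertical axis, %) for each cell type (horizontal axis), with bars for the 39 cell cycle and replication genes, 103 other genes of the pathway and the 21848 other protein-coding genes, which include those 103. Plasmablasts reach 87.2% against a background of 39.6%, and the other cell types lie between 10.3% and 23.1% against 5.78% to 9.70%.

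The plasmablast count was also taken under other ways of assigning summits. With a summit in either library 37 genes had one (other genes 48.3%). When the summits of both libraries had to lie at most 200 bp apart 26 genes remained (66.7%, other genes 31.6%). When each summit was given to the gene with the nearest end 32 remained (other genes 34.8%). RefSeq start sites were at hand for 30 of the 39 genes, and 26 of these had a plasmablast summit within 1 kb of a start in both libraries (86.7%, other genes 41.8%). In replicate 1 the summit nearest to a start lay at a median distance of 258 bp, upstream in 18 and downstream in 9 of the 27 genes with one within 1 kb. In replicate 2 the median was 182 bp, with 14 upstream and 14 downstream.

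At 1 kb the share of cell cycle genes lay above that of other genes in each of the 12 libraries alone. At 0.5 kb it lay below in 4 of them: d2 PGCLC replicate 1 (5.13%, other genes 6.47%), d6 PGCLC replicate 2 (5.13%, 7.31%), and the male (5.13%, 5.54%) and female (7.69%, 8.25%) libraries of E12.5 PGC. The counts that follow are at 1 kb. Plasmablast replicates 1 and 2 had a summit within 1 kb of 34 and 37 of the 39 genes (other genes 42.6% and 45.4%). The d6 PGCLC replicates differed most, with 25 genes in replicate 1 (64.1%, other genes 35.9%) and 9 in replicate 2 (23.1%, 10.4%). All 9 genes of replicate 2 were among the 25, so 16 genes had a summit in the longer list alone. The d2 PGCLC replicates had 7 and 10 genes (other genes 9.57% and 17.1%), while E12.5 PGC had 5 genes in the male and 7 in the female library (7.89% and 11.3%). Intestinal replicates had 9 and 14 genes (9.59% and 16.8%), and photoreceptor precursor replicates 8 and 9 (12.2% and 14.5%). The median distance from a cell cycle gene to its nearest summit was 285 and 184 bp in the plasmablast libraries, against 3357 and 2100 bp for other genes. In d6 PGCLC replicate 1 it was 747 bp against 3838 bp. In the remaining 9 libraries it ran from 4159 bp (intestinal replicate 2) to 25122 bp (photoreceptor precursor replicate 1), and for other genes from 18001 to 65097 bp.

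**Figure D2:**
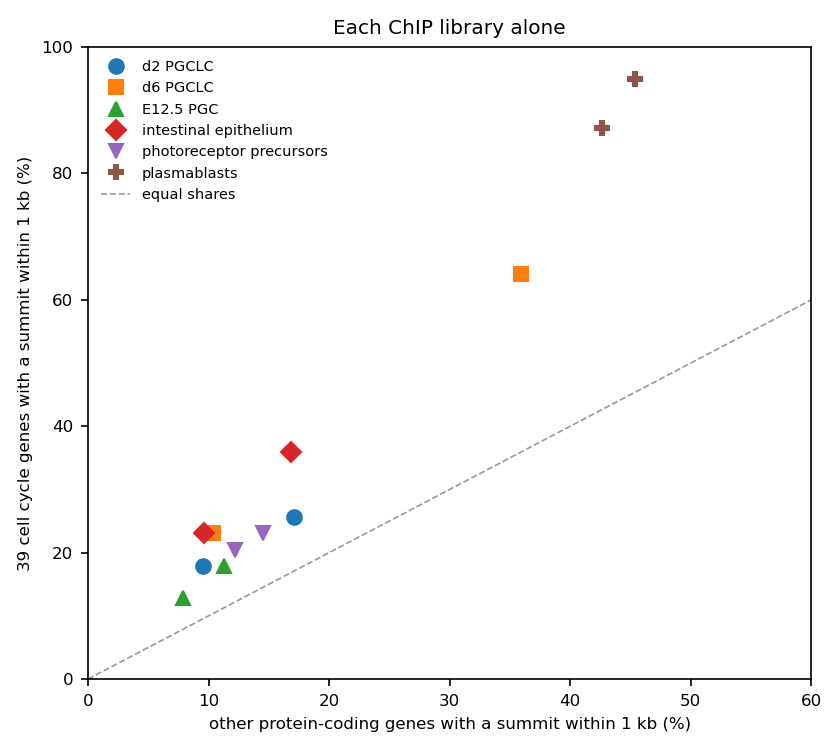
Share of the 39 cell cycle genes (vertical axis, %) against the share of other protein-coding genes (horizontal axis, %) with a summit within 1 kb, 1 point for each of the 12 libraries. All 12 points lie above the dashed line of equal shares, from 12.8% against 7.89% in the male E12.5 PGC library to 94.9% against 45.4% in plasmablast replicate 2.

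Plasmablast binding was also frequent at CpG-rich promoters in general. Among the other genes with a RefSeq promoter sequence, sorted by the ratio of observed to expected CpG, 7.37% were bound in plasmablasts at ratios up to 0.3, 27.9% between 0.3 and 0.6, 57.1% between 0.6 and 0.8, and 68.8% above 0.8. A promoter sequence was at hand for 76.9% of the 39 genes, under the 80% needed, so this check cannot be read for all 39. Of the 30 genes with one, 29 had a ratio above 0.6, and plasmablasts bound 25 of these (other genes above 0.6, 64.2%). Of the same 29, d2 PGCLC bound 4 (other genes 12.2%), d6 PGCLC 5 (14.2%), E12.5 PGC 1 (8.71%) and photoreceptor precursors 3 (15.4%). Intestinal epithelium bound 3 of them and 1028 of 8859 other genes. In E12.5 PGC, intestinal epithelium and photoreceptor precursors the 29 thus lay below other genes, and in d2 and d6 PGCLC above them. All these counts are small. The 29 leave out the 9 genes without a sequence, among them Ccnd1, Ccna2 and Rb1. E12.5 PGC bound 2 of these 9. Also left out is 1 gene with a ratio between 0.3 and 0.6, bound in E12.5 PGC, intestinal epithelium and photoreceptor precursors. No direction for the 39 genes was read from the 29. For the 103 other pathway genes, 81.6% of which had a sequence, 83.3% of those above a ratio of 0.8 were bound in plasmablasts (45 of 54). In the other cell types the share of these 54 genes was below that of other genes above 0.8 in d2 PGCLC (9.26%, other genes 11.9%), d6 PGCLC (9.26%, 14.5%), E12.5 PGC (5.56%, 8.72%) and photoreceptor precursors (11.1%, 16.6%). In intestinal epithelium 7 of the 54 were bound and 672 of 5368 other genes, a slightly higher share for the 54. Between 0.6 and 0.8 the shares compared differently. There 22 pathway genes lay above other genes in d6 PGCLC (22.7%, other genes 13.7%), E12.5 PGC (18.2%, 8.71%) and intestinal epithelium (27.3%, 10.2%). The same held in d2 PGCLC (5 of 22, other genes 436 of 3491), and photoreceptor precursors were nearly equal (13.6%, 13.5%). The direction in these cell types thus depended on the class of CpG ratio. The part of promoter composition in the counts of the 39 genes was not tested.

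Across cell types, 34 of the 39 genes were bound in at least 1 (other genes 44.3%). Of these, 20 were bound in plasmablasts and in no other cell type (other genes 25.7%), and 14 in plasmablasts and at least 1 other (bound in at least 2 cell types among other genes, 15.8%). No gene of the list was bound in another cell type without being bound in plasmablasts, which held for 4.67% of other genes, so the count of 0 is near the background. A total of 9 genes were bound in 3 or more cell types (23.1%; other genes 8.64%): Ccnd1, Ccna2, Cdk2, Cdk6, E2f3, Rb1, Rbl1, Mcm3 and Mcm7. When the summits of both libraries had to lie at most 200 bp apart, 5 genes remained (other genes 7.03%). Some calls thus join summits farther apart, as for Ccnd1 and Rbl1 in d2 PGCLC, Cdk6 in d6 PGCLC and E2f3 in plasmablasts. Rb1 was bound in all 6 (other genes 2.27%). Ccna2, Cdk2 and Rb1 were bound at all 3 germ-lineage stages (other genes 4.23%), and none of the 39 genes was bound at all 3 of these stages without a somatic cell type (other genes 0.366%). The 5 genes bound nowhere by their outer ends were Ccnb1, Ccnb2, E2f4, Cdkn1a and Cdc6. Ccnb1, Ccnb2 and E2f4 had a summit within 1 kb in 1 library each, and Cdkn1a and Cdc6 in 0. Within 5 kb the numbers of libraries were 3, 1, 1, 6 and 10, in the order first named.

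**Figure D3:**
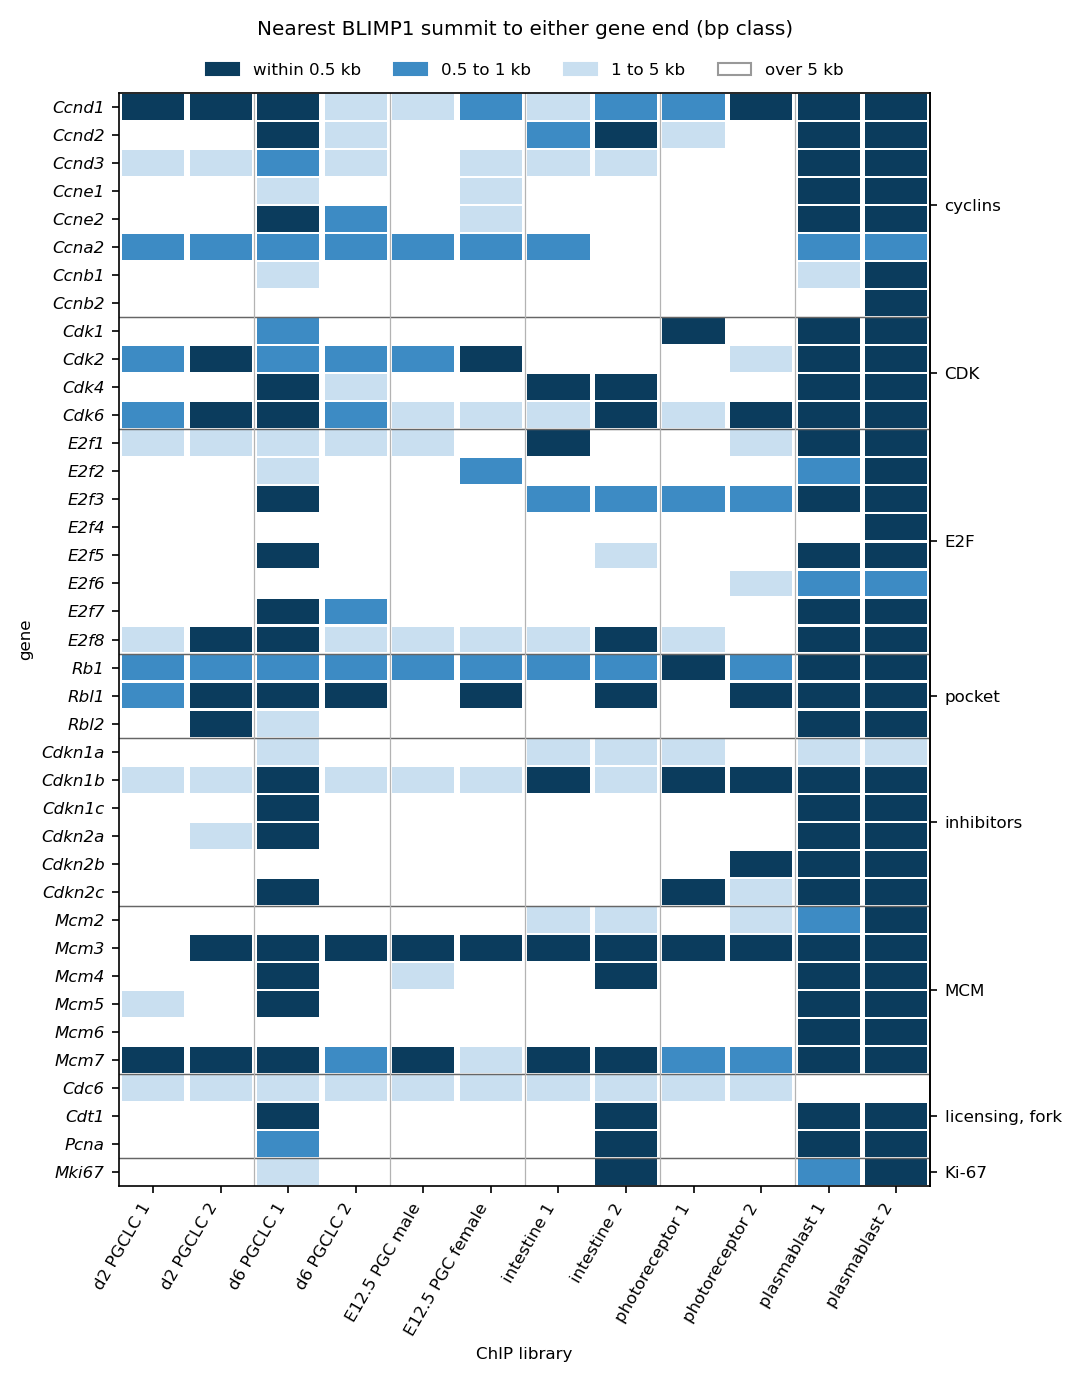
Distance class of the nearest summit to either end of each of the 39 genes (rows, grouped by role) in each of the 12 libraries (columns), with darker blue for shorter distances and white for more than 5 kb. The 2 plasmablast columns are dark for nearly all genes, d6 PGCLC replicate 1 is the fullest of the other columns with 25 genes within 1 kb, and Rb1 is the one row filled within 1 kb in all 12 libraries.

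Among the cyclins, 6 of 8 genes were bound in plasmablasts, 2 each in d2 and d6 PGCLC, and 1 each in E12.5 PGC, intestinal epithelium and photoreceptor precursors. For this and the role counts below, other genes were bound at 39.6% in plasmablasts, 8.39% in d2 PGCLC and 9.70% in d6 PGCLC. In E12.5 PGC, intestinal epithelium and photoreceptor precursors the shares were 5.78%, 7.28% and 9.67%. The groups are small, so low counts were not read as differences between roles. Ccnd1 encodes cyclin D1, which couples growth factor signals to CDK4 and CDK6 (chromosome 7, 144929931 to 144939831). Its nearest summits lay 273 and 404 bp from a gene end in d2 PGCLC, 362 and 1465 bp in d6 PGCLC, 1414 and 845 bp in male and female E12.5 PGC, 1651 and 909 bp in intestinal epithelium, 924 and 277 bp in photoreceptor precursors, and 160 and 326 bp in plasmablasts. It was thus bound in d2 PGCLC, photoreceptor precursors and plasmablasts, and 9 of 12 libraries came within 1 kb. The summit that all libraries had in common lay deeper in the gene. All 12 held a summit between 144938035 and 144938417, a stretch of 382 bp centred 1597 bp inside the higher-coordinate end and so outside the 1 kb window. A second cluster, centred 877 bp inside that end, held summits of the female E12.5 PGC library, intestinal replicate 2 and both photoreceptor precursor libraries. Another, 275 bp inside, held both plasmablast libraries with d2 PGCLC replicate 1 and photoreceptor precursor replicate 2.

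Ccna2 encodes cyclin A2, which acts with CDK2 in S phase and with CDK1 in G2 (chromosome 3, 36564865 to 36573038). Its nearest summits lay at 709 and 718 bp in d2 PGCLC, 747 and 764 bp in d6 PGCLC, 755 and 568 bp in male and female E12.5 PGC, 764 bp in intestinal replicate 1, and 679 and 729 bp in plasmablasts. Intestinal replicate 2 and both photoreceptor precursor libraries had none within 5 kb. All 6 germ-lineage libraries and both plasmablast libraries therefore marked the gene, and 9 libraries shared 1 site of 196 bp (36572274 to 36572470) centred 729 bp inside the higher-coordinate end. Every summit that made Ccna2 bound also lay within 1 kb of the end of another protein-coding gene, so the site cannot be assigned to Ccna2 alone, although the Ccna2 end was the nearer one.

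Ccnd2, the D-type cyclin of many B cells, was bound in intestinal epithelium (720 and 91 bp) and plasmablasts (328 and 204 bp). Its most shared sites lay farther out, 3518 bp beyond the higher-coordinate end (7 libraries, bound in d6 PGCLC, intestinal epithelium and plasmablasts) and 11574 bp inside that end (7 libraries, bound in d2 PGCLC and plasmablasts). Ccnd3, the third D-type cyclin, was bound near its ends in plasmablasts (253 and 73 bp). Within its 94639 bp it held 3 sites bound in 3 or more cell types. The first, 3143 bp from the lower-coordinate end, was bound in d2 PGCLC, d6 PGCLC, intestinal epithelium and plasmablasts, and the next, 33216 bp inside the higher-coordinate end, had summits in all 6 germ-lineage libraries and in no somatic one. The last of the 3, 15831 bp inside that end, was bound in every cell type except photoreceptor precursors. Another site, 5888 bp inside that end and 334 bp downstream of a RefSeq start, was bound in d2 PGCLC and plasmablasts. Ccne2, an activator of CDK2 at S phase entry, was bound in d6 PGCLC (257 and 989 bp) and plasmablasts (137 and 241 bp), and its relative Ccne1 in plasmablasts (307 and 175 bp). The d6 PGCLC summits of Ccne2 lay in separate sites, centred 241 and 905 bp inside the lower-coordinate end, so the 2 libraries shared no site there. The mitotic cyclins Ccnb1 and Ccnb2 each had a summit within 1 kb in 1 library, plasmablast replicate 2, at 232 and 299 bp.

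All 4 CDK genes were bound in plasmablasts. Cdk2, the S phase kinase, was also bound at the 3 germ-lineage stages, and its nearest summits lay at 881 and 247 bp in d2 PGCLC, 783 and 613 bp in d6 PGCLC, 554 and 178 bp in male and female E12.5 PGC, and 150 and 485 bp in plasmablasts (chromosome 10, 128697938 to 128705051). In photoreceptor precursors the nearest was at 1477 bp in replicate 2, and neither intestinal library had one within 5 kb. The 8 marking libraries shared a site of 396 bp (128704170 to 128704566) inside the gene, centred 681 bp downstream of the RefSeq start. Cdk1, the mitotic kinase, was bound in plasmablasts (128 and 184 bp) and had single summits at 837 bp in d6 PGCLC replicate 1 and 181 bp in photoreceptor precursor replicate 1. The promoters of both kinases are shown because summits fell within them, in 3 libraries each. Both also hold matches to the E2F consensus, which played no part in the choice. Sequences here and below are RefSeq promoters of GRCm38.p6, the assembly of mm10, running from 250 bases before to 50 after the start, 5′ to 3′ on the gene's strand. Capitals mark matches on either strand to TTTNNCGC, an E2F consensus, or AGNGAAAG, the core of the BLIMP1 consensus. The Cdk1 run is chr10:69352863-69353162 and the Cdk2 run chr10:128705002-128705301, both on the minus strand.
Cdk1: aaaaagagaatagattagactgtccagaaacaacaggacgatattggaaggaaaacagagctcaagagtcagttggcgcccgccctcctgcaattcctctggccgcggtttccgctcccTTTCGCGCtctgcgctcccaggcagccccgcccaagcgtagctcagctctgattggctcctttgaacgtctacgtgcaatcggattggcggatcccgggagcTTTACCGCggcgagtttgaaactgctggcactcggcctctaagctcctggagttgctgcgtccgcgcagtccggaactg
Cdk2: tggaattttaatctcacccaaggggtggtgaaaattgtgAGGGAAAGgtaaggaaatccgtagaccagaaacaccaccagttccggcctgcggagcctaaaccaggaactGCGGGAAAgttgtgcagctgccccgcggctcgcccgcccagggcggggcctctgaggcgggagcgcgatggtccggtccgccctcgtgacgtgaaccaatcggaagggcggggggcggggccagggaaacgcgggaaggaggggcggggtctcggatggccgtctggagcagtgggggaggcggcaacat
Counted from base 1 of the run, the Cdk1 summits lay at base 123 in plasmablast replicate 1, base 67 in replicate 2 and base 70 in photoreceptor precursor replicate 1, and the E2F matches began at bases 120 and 222. In Cdk2 the BLIMP1 match spanned bases 40 to 47 and the E2F match bases 111 to 118, and summits lay at base 4 in d2 PGCLC replicate 2, base 73 in the female E12.5 PGC library and base 101 in plasmablast replicate 1.

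Cdk6, the G1 partner of the D-type cyclins (chromosome 5, 3341004 to 3531008), had its nearest summits at 528 and 182 bp from a gene end in d2 PGCLC, 164 and 882 bp in d6 PGCLC, 2295 and 2337 bp in male and female E12.5 PGC, 2305 and 121 bp in intestinal epithelium, 2342 and 177 bp in photoreceptor precursors, and 176 and 151 bp in plasmablasts. By the gene ends it was bound in d2 PGCLC, d6 PGCLC and plasmablasts. The RefSeq start used for its promoter lies inside the outer gene boundary, and all 12 libraries had a summit between 278 and 668 bp from that start. One site there, 599 bp upstream of the start (3343225 to 3343346), held 9 libraries, with no summit in either plasmablast library, whose summits lay nearer the start at 278 and 333 bp. A second site, 26309 bp inside the higher-coordinate end (3504600 to 3504761), held all 12 libraries. Cdk4, the other G1 kinase, was bound in intestinal epithelium (34 and 12 bp) and plasmablasts (284 and 152 bp). A site 4023 bp beyond its end was bound in d6 PGCLC, intestinal epithelium and plasmablasts, but lay 339 bp from the end of Tspan31.

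All 3 pocket protein genes were bound in plasmablasts, 2 each in d2 and d6 PGCLC, and 1 in each of the other cell types. Rb1, the retinoblastoma tumour suppressor that holds E2F factors inactive (chromosome 14, 73192858 to 73325951), was the gene of the list bound in all 6 cell types. Its nearest summits lay at 953 and 933 bp in d2 PGCLC, 929 and 962 bp in d6 PGCLC, 900 and 900 bp in male and female E12.5 PGC, 799 and 921 bp in intestinal epithelium, 209 and 972 bp in photoreceptor precursors, and 305 and 250 bp in plasmablasts. All 12 libraries shared a site of 223 bp (73324929 to 73325152) centred 931 bp inside the higher-coordinate end. The site lies at the edge of the 1 kb window, and the summit of photoreceptor precursor replicate 1 in it fell just outside. Plasmablasts and photoreceptor precursor replicate 1 had a further summit within 305 bp of that end. With a 0.5 kb window Rb1 was bound in plasmablasts and no other cell type, and with both summits at most 200 bp apart it was not bound in photoreceptor precursors.

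Rbl1, which encodes the pocket protein p107 (chromosome 2, 157145893 to 157204534), had its nearest summits at 532 and 113 bp in d2 PGCLC, 0 and 264 bp in d6 PGCLC, 88 bp in female E12.5 PGC, 161 bp in intestinal replicate 2, 70 bp in photoreceptor precursor replicate 2, and 122 and 59 bp in plasmablasts. The male E12.5 PGC library, intestinal replicate 1 and photoreceptor precursor replicate 1 had none within 5 kb, so the gene was bound in d2 PGCLC, d6 PGCLC and plasmablasts, with 9 libraries marking it. A site of 323 bp at the start held 8 of them. Rbl2 (p130), the pocket protein of resting cells, was bound in plasmablasts at 4 and 58 bp. The Rbl1 promoter (chr2:157204485-157204784, minus strand) is shown because 6 libraries had a summit inside the run.
Rbl1: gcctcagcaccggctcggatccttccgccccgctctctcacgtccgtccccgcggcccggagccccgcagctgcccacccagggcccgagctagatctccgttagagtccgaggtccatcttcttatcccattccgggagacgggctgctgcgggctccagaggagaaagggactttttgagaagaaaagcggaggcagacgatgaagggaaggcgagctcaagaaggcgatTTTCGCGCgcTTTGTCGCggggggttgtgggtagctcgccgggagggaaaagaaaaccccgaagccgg
The summits lay between base 90 (intestinal replicate 2) and base 251 (d6 PGCLC replicate 1), with a median at base 150. The E2F matches spanned bases 233 to 240 and 243 to 250, just before the start.

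Among the E2F genes, 7 of 8 were bound in plasmablasts (other genes 39.6%) and 1 each in d6 PGCLC, intestinal epithelium and photoreceptor precursors. In d2 PGCLC and E12.5 PGC 0 of 8 were bound, which is near the background (other genes 8.39% and 5.78%). E2f3, an activating E2F (chromosome 13, 29906575 to 29986064), was bound in the 3 somatic cell types. Its nearest summits lay at 877 and 907 bp in intestinal epithelium, 894 and 892 bp in photoreceptor precursors and 396 and 263 bp in plasmablasts. Among the germ-lineage libraries d6 PGCLC replicate 1 had a summit at 224 bp and the other 5 had none within 5 kb. The intestinal and photoreceptor summits fell within 30 bp of each other (29986941 to 29986971), 894 bp beyond the gene, together with 1 of plasmablast replicate 1. A separate site 12998 bp from the other end was bound in d6 PGCLC and E12.5 PGC. E2f7, an atypical repressor, was bound in d6 PGCLC (261 and 810 bp) and plasmablasts (285 and 336 bp), but at opposite ends of the gene. The site with both d6 PGCLC libraries lay 814 bp beyond the higher-coordinate end. The site with both plasmablast libraries lay 285 bp inside the lower-coordinate end, and held d6 PGCLC replicate 1 as well. By start sites E2f7 was bound in plasmablasts alone. The activators E2f1 (303 and 33 bp) and E2f2 (748 and 208 bp), and E2f5 (20 and 119 bp) and E2f6 (660 and 805 bp), which act as repressors, were bound in plasmablasts alone. Single libraries of other cell types had a summit at E2f1 (54 bp, intestinal replicate 1), E2f2 (714 bp, female E12.5 PGC) and E2f5 (335 bp, d6 PGCLC replicate 1). E2f4, the main repressive E2F of resting cells, had 1 summit within 5 kb in the 12 libraries, at 23 bp in plasmablast replicate 2. E2f8, the second atypical repressor, was bound in plasmablasts (294 and 296 bp), and d2 PGCLC replicate 2, d6 PGCLC replicate 1 and intestinal replicate 2 had summits at 215, 273 and 294 bp. All 12 libraries shared a site inside E2f8 (48871032 to 48871506), centred 4797 bp from its lower-coordinate end. Its promoter (chr7:48881547-48881846, minus strand) is shown because 4 libraries had a summit in it, and it holds neither motif.
E2f8: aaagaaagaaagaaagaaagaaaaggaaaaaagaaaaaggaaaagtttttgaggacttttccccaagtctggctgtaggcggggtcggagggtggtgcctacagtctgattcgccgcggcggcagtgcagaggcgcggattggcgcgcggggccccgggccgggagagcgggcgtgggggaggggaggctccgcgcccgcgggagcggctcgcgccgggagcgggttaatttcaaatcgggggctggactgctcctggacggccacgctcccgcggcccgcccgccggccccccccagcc
These 4 summits lay at bases 55 to 70 of the run.

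Of the 6 CDK inhibitors, 5 were bound in plasmablasts (other genes 39.6%), 1 in photoreceptor precursors (9.67%) and 0 in the remaining cell types. Cdkn1b (p27), which keeps cells out of the cycle (chromosome 6, 134920401 to 134925525), was bound in photoreceptor precursors (122 and 134 bp) and plasmablasts (22 and 274 bp), and these 4 libraries shared a site 128 bp downstream of its start. Of the germ-lineage libraries d6 PGCLC replicate 1 had its nearest summit at 379 bp, and the nearest in the other 5 lay between 2774 and 3724 bp. A site 3713 bp upstream was bound in d2 PGCLC, E12.5 PGC and plasmablasts, and one 4517 bp upstream in d6 PGCLC, E12.5 PGC and plasmablasts. The INK4 inhibitors Cdkn2a (147 and 81 bp), Cdkn2b (346 and 262 bp) and Cdkn2c (114 and 297 bp), and the imprinted Cdkn1c (285 and 30 bp), were bound in plasmablasts alone. In d6 PGCLC replicate 1 a summit lay near Cdkn2a (70 bp), Cdkn2c (408 bp) and Cdkn1c (150 bp), and in photoreceptor precursor replicate 2 near Cdkn2b (46 bp). In photoreceptor precursors the Cdkn2c summits nearest to a gene end lay at 305 and 1048 bp, the second just outside the window. Other summits of both libraries lay 101 and 107 bp from a second RefSeq start inside the gene, in a site shared with both plasmablast libraries. Cdkn1a (p21), the inhibitor induced by DNA damage (chromosome 17, 29090979 to 29100722), had no summit within 1 kb of its ends in any library. Measured from a RefSeq start inside the gene, however, plasmablast replicate 1 had a summit at 87 bp and intestinal replicate 2 at 56 bp, while their partner libraries lay 1004 and 1253 bp from the nearest start. The plasmablast summits nearest to its ends lay at 1130 and 1004 bp, the second 4 bp outside the window, and a site inside the gene, 4378 bp from its lower-coordinate end, was bound in intestinal epithelium and plasmablasts.

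All 6 MCM helicase genes were bound in plasmablasts, 2 in d6 PGCLC, intestinal epithelium and photoreceptor precursors, and 1 in d2 PGCLC and E12.5 PGC. Mcm3 (chromosome 1, 20802966 to 20820312) was bound in every cell type except d2 PGCLC. Its nearest summits lay at 103 bp in d2 PGCLC replicate 2, 33 and 13 bp in d6 PGCLC, 11 and 29 bp in male and female E12.5 PGC, 92 and 2 bp in intestinal epithelium, 76 and 128 bp in photoreceptor precursors, and 84 and 79 bp in plasmablasts. The single exception was d2 PGCLC replicate 1, with none within 5 kb. These 11 libraries formed 1 site of 231 bp (20820209 to 20820440) across the start of the gene. Mcm7 (chromosome 5, 138164583 to 138172111) was bound in every cell type except E12.5 PGC by its gene ends. Its nearest summits lay at 91 and 56 bp in d2 PGCLC, 111 and 976 bp in d6 PGCLC, 66 and 1422 bp in male and female E12.5 PGC, 30 and 166 bp in intestinal epithelium, 947 and 907 bp in photoreceptor precursors, and 35 and 146 bp in plasmablasts. The gene has several RefSeq starts, and all 12 libraries had a summit within 577 bp of one of them.

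The Mcm7 summits fell into separate sites. One centred 63 bp beyond the gene held 8 libraries and was bound in d2 PGCLC, intestinal epithelium and plasmablasts. Another, centred 979 bp inside, also held 8 libraries, with none of the d2 PGCLC or E12.5 PGC libraries, and was bound in d6 PGCLC, intestinal epithelium, photoreceptor precursors and plasmablasts. This second site lay 889 bp from the end of Ap4m1, nearer than the Mcm7 end. A further site held both E12.5 PGC libraries and no other. It was centred 1346 bp inside the higher-coordinate end, outside the 1 kb window, and 501 bp downstream of a RefSeq start. It too was nearer to the end of Ap4m1 (1256 bp). In d2 PGCLC, d6 PGCLC, intestinal epithelium, photoreceptor precursors and plasmablasts every summit that made Mcm7 bound was also within 1 kb of another gene's end. The promoters of Mcm3 (chr1:20820263-20820562) and Mcm7 (chr5:138171834-138172133), both on the minus strand, are shown as those of the most widely marked helicase genes.
Mcm3: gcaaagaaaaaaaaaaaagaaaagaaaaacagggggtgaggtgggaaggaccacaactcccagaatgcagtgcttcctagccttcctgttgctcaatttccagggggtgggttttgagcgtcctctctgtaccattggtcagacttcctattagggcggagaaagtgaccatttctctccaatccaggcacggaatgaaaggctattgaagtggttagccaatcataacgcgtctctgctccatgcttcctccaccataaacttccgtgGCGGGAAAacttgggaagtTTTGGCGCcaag
Mcm7: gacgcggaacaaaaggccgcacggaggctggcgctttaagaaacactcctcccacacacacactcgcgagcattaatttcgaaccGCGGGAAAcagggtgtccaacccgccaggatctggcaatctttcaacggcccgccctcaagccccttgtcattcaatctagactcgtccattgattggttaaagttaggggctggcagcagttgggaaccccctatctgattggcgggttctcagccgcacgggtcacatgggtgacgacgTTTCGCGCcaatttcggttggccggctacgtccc
In Mcm3, summits of 10 libraries fell in the run, between base 123 (photoreceptor precursor replicate 2) and base 262 (male E12.5 PGC), with a median at base 196. The plasmablast summits lay at bases 167 and 172, and the E2F matches at bases 270 to 277 and 289 to 296, downstream of the start and of every summit in the run. In Mcm7, 3 libraries had a summit in this run, between bases 53 and 89, and E2F matches began at bases 86 and 267.

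The other MCM genes were bound in plasmablasts alone. Their plasmablast summits lay at 538 and 103 bp for Mcm2, 226 and 86 bp for Mcm4, 191 and 129 bp for Mcm5, and 317 and 155 bp for Mcm6. Mcm6 had no summit within 5 kb in the 10 libraries of other cell types. At Mcm4 every plasmablast summit was also within 1 kb of another gene's end, and the same held for Pcna. Cdt1, which loads MCM complexes (34 and 38 bp), Pcna, the sliding clamp of DNA polymerases (262 and 152 bp), and Mki67, which encodes Ki-67 (846 and 256 bp), were bound in plasmablasts alone, and each also had a summit within 1 kb in intestinal replicate 2 (96, 31 and 262 bp). Mcm4 had one in that library as well (150 bp). In d6 PGCLC replicate 1 a summit lay within 1 kb of Cdt1 (225 bp), Pcna (886 bp), Mcm4 (152 bp) and Mcm5 (63 bp). Cdc6 (chromosome 11, 98907709 to 98923942), which recruits CDT1 and MCM to origins, differed. Neither plasmablast library had a summit within 5 kb, while all 10 libraries of other cell types had one between 1869 and 4809 bp. A site 3014 bp before its lower-coordinate end was bound in d2 PGCLC, d6 PGCLC and intestinal epithelium, but lay 883 bp from the end of Wipf2. The other sites of these 10 libraries within 5 kb of Cdc6 were likewise nearer to an end of Wipf2 or Rara. The site of both photoreceptor precursor libraries lay 28 bp from Rara. None of these sites can therefore be assigned to Cdc6.

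**Figure D4:**
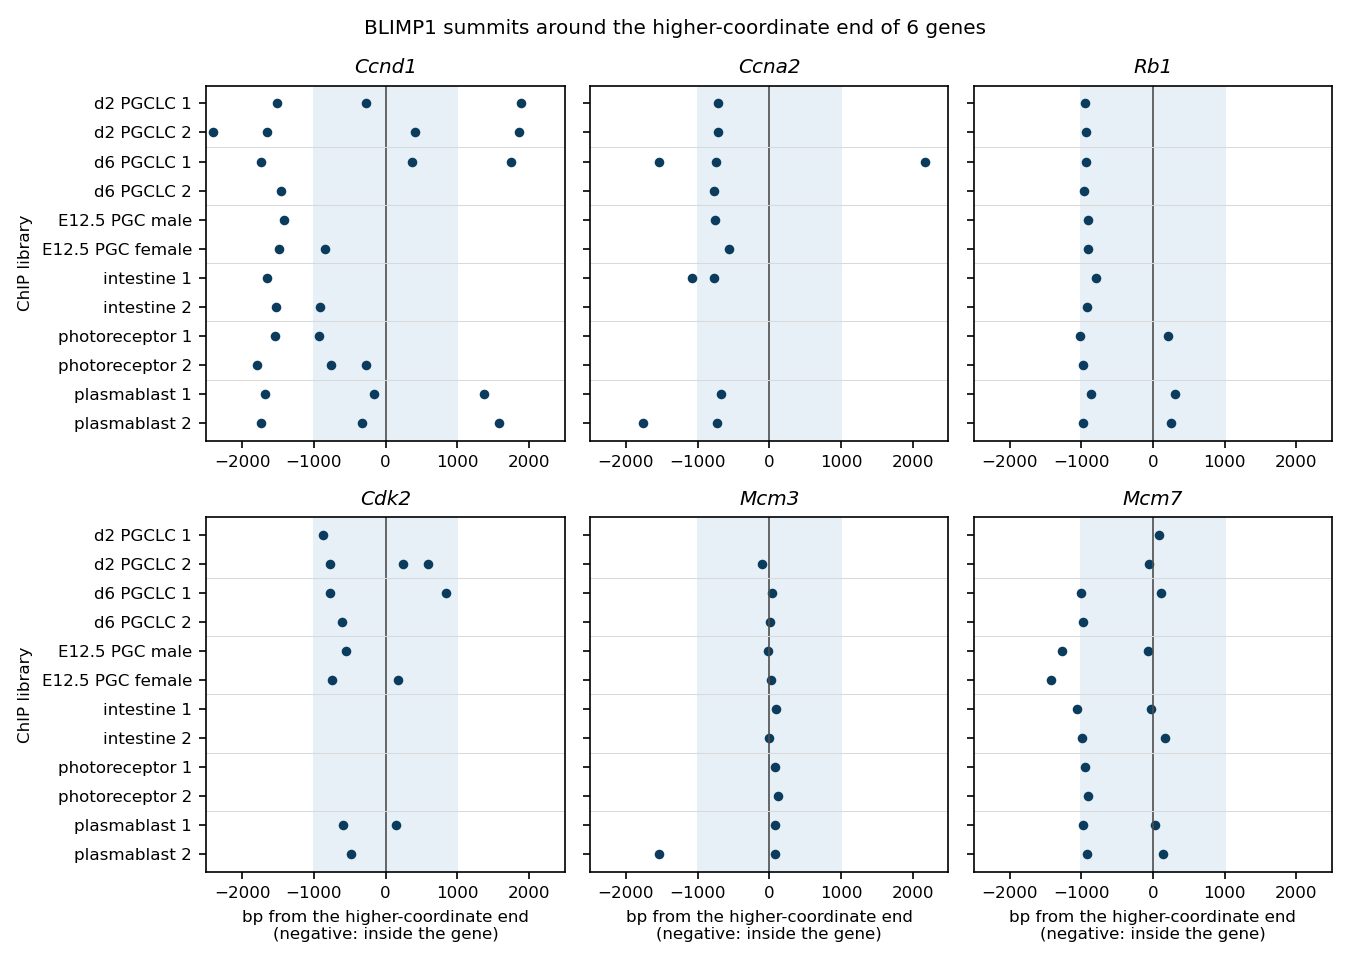
Position of each summit (points) relative to the higher-coordinate end of 6 genes (horizontal axis, bp, negative inside the gene) in the 12 libraries (vertical axis), with the 1 kb window shaded. Summits line up 1597 bp inside Ccnd1 and 931 bp inside Rb1 in all 12 libraries, at the end of Mcm3 in 11, and in separate clusters at 63 bp and 979 bp at Mcm7.

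Summits of all libraries at most 200 bp apart were joined into sites. In the genes or within 5 kb of them there were 376 sites, with a median of 7 per gene and 235 of 1 library. Plasmablasts bound 89 of the sites, 67 of them as the single cell type, and 18 sites at 13 genes were bound in 3 or more cell types. These site counts were not taken for other genes, so they describe the list and were not read as differing from a background. Sites with all 12 libraries numbered 4, in Ccnd1, Cdk6, E2f8 and Rb1. Of these, 3 lay within 5 kb of a gene end, and 3.17% of other genes had such a site. A summit within 5 kb in all 12 libraries, at any position, was found for 5 genes (Ccnd1, Cdk6, Rb1, Cdkn1b and Mcm7) and for 4.15% of other genes.

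The E2F consensus was more frequent in these promoters than in all promoters, and the BLIMP1 consensus was found in 1 of them. TTTNNCGC was found on either strand in 40.5% of the 37 promoter runs of the 30 matched genes, and in 6.24% of the 21263 protein-coding promoters of the table. By gene, 14 of the 30 held it: Cdk1, Cdk2, Cdk6, E2f2, E2f3, E2f7, Rbl1, Cdkn2a, Mcm3, Mcm5, Mcm6, Mcm7, Cdc6 and Cdt1. AGNGAAAG was found in 2.70% of the 37 runs, that of Cdk2, and in 8.07% of all. TTTNNCGC itself contains a CpG, and 29 of the 30 genes had a CpG ratio above 0.6. Promoters of like CpG ratio were not compared, so the part of promoter composition in the E2F share was not tested. These windows cover 300 bases at a start, whereas many of the summits lay outside them.

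The 103 other genes of the cell cycle and replication pathway, chosen by name, had a lower share bound within 1 kb than the 39 in each cell type. At 0.5 kb their share was the higher one in d2 PGCLC (9.71%, the 39 genes 5.13%), d6 PGCLC (7.77%, 5.13%), E12.5 PGC (5.83%, 2.56%), intestinal epithelium (9.71%, 7.69%) and photoreceptor precursors (11.7%, 5.13%), and the lower one in plasmablasts (65.0%, 74.4%). These differences were not tested, and the counts that follow are at 1 kb. Plasmablasts bound 80 of the 103 (77.7%, other genes 39.6%), intestinal epithelium 15 (14.6%, 7.28%) and d6 PGCLC 14 (13.6%, 9.70%). Photoreceptor precursors bound 13 (12.6%, 9.67%), d2 PGCLC 12 (11.7%, 8.39%) and E12.5 PGC 9 (8.74%, 5.78%). By role, plasmablasts bound 20 of 22 genes of origin licensing and firing, 22 of 25 of mitosis and its checkpoints, 9 of 10 E2F partners and MuvB subunits, 17 of 25 of the polymerases and the fork, and 12 of 21 other cyclins and CDK regulators. A total of 8 were bound in 4 or more cell types (7.77%, other genes 5.64%). Mcm8, an MCM paralogue of homologous recombination, and Lin37 and Lin52, subunits of the MuvB core that joins pocket proteins or B-Myb at cell cycle promoters, had a summit within 1 kb in all 12 libraries. At Mcm8 these lay between 78 and 380 bp, at Lin37 between 6 and 353 bp, and at Lin52 between 65 and 905 bp. Mybl2 (B-Myb), Chek1, a checkpoint kinase, and Cdkn2d, the fourth INK4 inhibitor, were bound in every cell type but photoreceptor precursors, where neither library had a summit within 5 kb. Cks1b, a CDK-binding subunit, was bound in every cell type but E12.5 PGC, and Kif23, a kinesin of cytokinesis, in d6 PGCLC, E12.5 PGC, intestinal epithelium and plasmablasts. Whether the summits at these 8 genes lay nearer to another gene's end was not examined. When each summit was given to the gene with the nearest end, fewer of the 103 were bound. Plasmablasts then bound 67 (65.0%, other genes 34.8%), intestinal epithelium 10 (9.71%, 6.07%) and d6 PGCLC 10 (9.71%, 8.46%). Photoreceptor precursors bound 9 (8.74%, 8.18%), d2 PGCLC 9 (8.74%, 7.31%) and E12.5 PGC 7 (6.80%, 4.89%).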

How the data were processed

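BLIMP1 binding was measured by ChIP-seq in 12 libraries of 6 cell types, and an input library of male E12.5 PGC was not used here. The authors' tools, per the submitters' processing notes, include MACS2 2.1, Bowtie 1.1.2, cutadapt 1.7.1 and Trim Galore 0.3.7, and the genome build is mm10. Each deposited list belongs to 1 library and gives 1 position per summit, without peak heights or scores. Calling threshold, control and depth are not given in the sources used here. Genes came from RefSeq (GRCm38.p6). For each gene the distance from either end to the nearest summit was computed per library with Python 3.11.15 and numpy 2.4.6, and genes with a summit within 1 kb in both libraries were called bound. Windows of 0.5 and 5 kb, either library, summits at most 200 bp apart, the nearest gene end, start sites and each library left out were tried as alternatives, and classes of CpG ratio were added after seeing the data. The distance step was tested on simulated positions. All 39 genes are accounted for: those bound in 3 or more cell types are given in full, other pathway genes are named when bound in 4 or more, and promoters are shown for the 6 genes with summits in the window in most libraries. The genes and lists were chosen with earlier results of these data known. The pathway list was chosen by name. No test was run, since the lists carry no quantity to test across libraries.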

Additional observations from a re-analysis of the deposited data

How the results depend on the processing

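The number of genes bound in plasmablasts (34) and in at least 1 cell type (34) stayed within 1.5 times under every alternative, at 26 to 37 in each case. Other counts moved, each beside its share of other genes. At 0.5 kb they were 3 for intestinal epithelium (5.07%), 2 for photoreceptor precursors (7.28%), 1 for E12.5 PGC (3.81%), 2 in d6 PGCLC (5.90%), 2 in d2 PGCLC (5.30%), 2 in at least 3 cell types (5.25%) and 0 in all 6 (1.44%). At 5 kb they were 14 for intestinal epithelium (12.9%), 10 for E12.5 PGC (12.1%), 17 in d6 PGCLC (19.2%), 12 in d2 PGCLC (17.8%), 16 in at least 3 cell types (17.7%) and 5 in all 6 (4.15%). With a summit in either library they were 11 for photoreceptor precursors (17.0%), 17 for intestinal epithelium (19.1%), 8 for E12.5 PGC (13.4%), 25 in d6 PGCLC (36.6%), 18 in at least 3 cell types (24.7%) and 5 in all 6 (4.78%). With summits at most 200 bp apart 5 were bound in at least 3 cell types (7.03%) and 0 in all 6 (1.58%). At start sites, with 30 genes, 5 were bound in d6 PGCLC (9.37%) and 2, Cdk6 and Mcm7, in all 6 (2.50%). Each library was then left out in turn, so that its partner decided. Counts ran from 34 to 37 in plasmablasts (other genes 42.6% to 45.4%), 8 to 9 for photoreceptor precursors (12.2% to 14.5%) and 9 to 14 for intestinal epithelium (9.59% to 16.8%). They ran from 5 to 7 for E12.5 PGC (7.89% to 11.3%), 9 to 25 in d6 PGCLC (10.4% to 35.9%) and 7 to 10 in d2 PGCLC (9.57% to 17.1%). Across cell types they were 34 to 37 in at least 1 (44.5% to 52.8%), 9 to 12 in at least 3 (8.76% to 12.4%) and 1 to 2 in all 6 (2.29% to 2.53%). The 12 in at least 3 came without d6 PGCLC replicate 2 (other genes 12.4%). The 25 of d6 PGCLC came without replicate 2, the 7 of E12.5 PGC without the male library and the 14 of intestinal epithelium without replicate 1. The value 2 in all 6 came without d2 PGCLC replicate 1 or without the female E12.5 PGC library. Wider windows, fewer libraries and fewer genes change counts by construction. For single genes, 89 of the numbers of cell types moved by more than 1.5 times and 604 did not. No paired analysis was possible because no result comes from a test. Without depth or peak heights, summits missing from short lists cannot be told apart from sites not bound.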
